A study of Mus musculus with 46 samples.

Results

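The tumour suppressor p53 (gene Trp53) and 9 genes that it is known to activate, Mdm2, Pmaip1, Bbc3, Bax, Ccng1, Phlda3, Trp53inp1, Sesn2 and Ei24, were followed by RNA sequencing through mouse liver tumours and control livers. The genes were taken by symbol from a table of 21671 genes, and all 10 were present and passed the filter on low values, which kept 14566 genes. Cdkn1a, the p53 target that encodes the cell cycle inhibitor p21, was left out of the set and is given beside it.

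All mice were FVB. Myc-off tumours carried tet-Myc and LAPtTA with the transgene switched off by 16 h of doxycycline in the food, and gave 8 libraries from 3 animal IDs. MycVD tumours carried tet-MycVD, whose Myc has the V394D substitution known to weaken its binding to Miz1, with LAPtTA and with expression on, and gave 11 libraries from 10 IDs. Myc tumours carried tet-Myc and LAPtTA with expression on, and gave 16 libraries from 7 IDs. Control livers gave 11 libraries from 11 IDs, and their genotype is not named further in the labels. The LAP promoter confines the transactivator tTA to liver cells, and the transgenes were expressed from before birth. The IDs of all Myc-off animals are numbered above those of the other groups, and the IDs of all MycVD animals above those of the Myc tumours, so that switch-off and the substitution cannot be told apart from date or batch.

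In unstressed cells p53 protein is kept scarce by Mdm2, a ubiquitin ligase that marks it for destruction. DNA damage and oncogene activity, Myc included, stabilise p53, which then binds its response elements and raises genes for growth arrest, cell death, metabolism and its own restraint, among them Mdm2 itself. Much of this control acts on the protein, so the Trp53 mRNA and the activity of p53 need not move together.

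RefSeq promoter windows (build GRCm38.p6, 250 bases before to 50 after the start) were held for 8 of the 10 genes. They are shown for the genes in which a decamer of the p53 consensus, 1 of the pair that makes a full response element, was found next to results described below, and they end at the start site except for 20 bases more in Trp53. Capitals mark the p53 decamer and, in Trp53 and Bax, the E-box CACGTG, the letters bound by Myc and by other factors of its class.
Trp53, chr11:69580109-69580378, plus strand: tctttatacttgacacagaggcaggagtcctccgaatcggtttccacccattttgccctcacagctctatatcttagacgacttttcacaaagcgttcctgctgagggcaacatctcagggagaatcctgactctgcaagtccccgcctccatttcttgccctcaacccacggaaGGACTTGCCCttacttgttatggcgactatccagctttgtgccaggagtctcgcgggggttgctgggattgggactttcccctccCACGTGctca
Bax, chr7:45466899-45467148, minus strand: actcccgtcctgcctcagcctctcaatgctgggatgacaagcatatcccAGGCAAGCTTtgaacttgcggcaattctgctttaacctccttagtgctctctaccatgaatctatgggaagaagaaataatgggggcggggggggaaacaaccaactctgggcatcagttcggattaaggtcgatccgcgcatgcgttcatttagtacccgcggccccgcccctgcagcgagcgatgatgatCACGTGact
Mdm2, chr10:117710759-117711008, minus strand: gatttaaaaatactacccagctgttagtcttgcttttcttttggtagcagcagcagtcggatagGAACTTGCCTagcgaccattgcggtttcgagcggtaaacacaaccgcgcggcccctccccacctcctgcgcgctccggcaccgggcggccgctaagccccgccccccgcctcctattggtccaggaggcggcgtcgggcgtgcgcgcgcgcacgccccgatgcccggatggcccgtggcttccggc
Ccng1, chr11:40755287-40755536, minus strand: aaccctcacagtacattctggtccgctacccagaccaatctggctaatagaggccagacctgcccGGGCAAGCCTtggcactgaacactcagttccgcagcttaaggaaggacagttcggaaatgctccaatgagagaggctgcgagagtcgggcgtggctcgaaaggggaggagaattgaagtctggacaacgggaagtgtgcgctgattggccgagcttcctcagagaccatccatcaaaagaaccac
The decamer was found on either strand in 5 of the 8 genes, the fifth being Ei24 at position -10, against 8.36% of 32851 mouse promoter windows. CACGTG was found in 3 of the 8 genes, Trp53, Bax and Bbc3, against 7.15% of windows. The 8 genes have 10 windows and each was counted if any of its windows matched, while the shares are per window. Such matches describe letters and show no binding.

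Levels are exonic RPKM (eRPKM, reads scaled by exon length and library depth, as deposited), given as the mean of the tumours of each ID. Recovered depth was 3.22 to 10.34 M reads in Myc-off libraries, 6.16 to 10.53 M in MycVD libraries, 7.25 to 12.62 M in Myc libraries and 5.60 to 8.91 M in control libraries. Log2 fold changes are of log2(eRPKM + 0.5), which understates the change of low genes, and are given with their standard error and the Benjamini-Hochberg adjusted p of limma over all tested genes. A gene is said to have risen or fallen where this p was under 0.05. Gapdh lay under 30 eRPKM in 8 libraries (2 MycVD, 5 Myc, 1 control), below all others. Among control livers the low one, ID125322, had the highest Bbc3, Bax, Phlda3 and Ei24 and the lowest Mdm2, Ccng1 and Trp53inp1. In whole tissue, fewer cells of a type and less RNA per cell cannot be told apart.

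**Figure D1:**
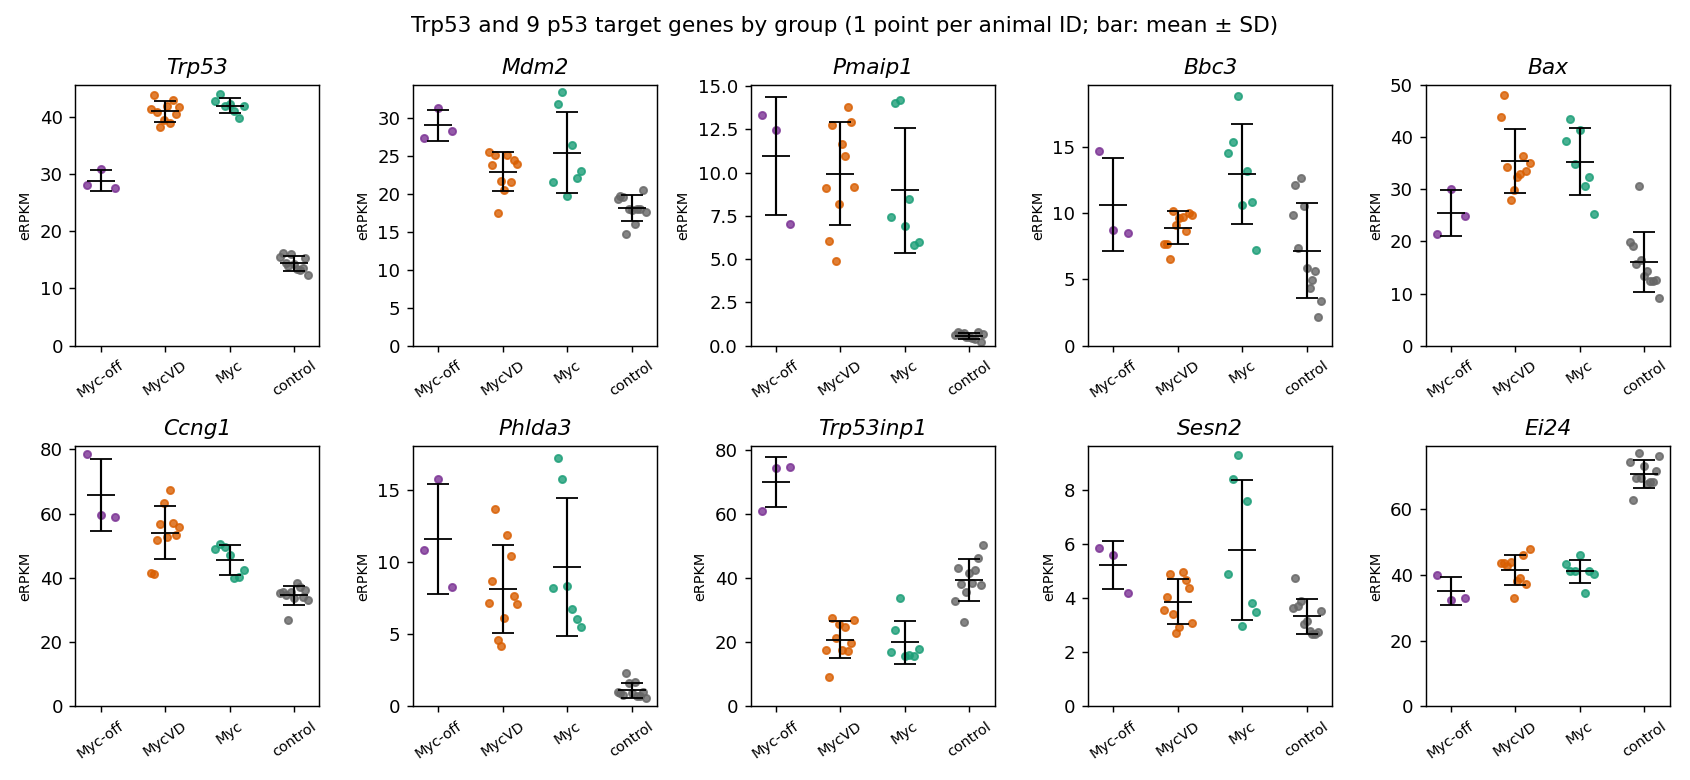
Level of each of the 10 genes in eRPKM (y axes, from 0) by group (x axes). Each point is the mean of 1 animal ID (3 Myc-off, 10 MycVD, 7 Myc and 11 control IDs), and bars are the mean and SD. Pmaip1 and Phlda3 sit near 0 in control livers, with means of 0.574 and 1.11 eRPKM, and Trp53inp1 is above all other groups in the Myc-off IDs.

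Trp53 was higher in every tumour group than in control livers, and lower after 16 h without transgene expression than in Myc tumours. The 3 Myc-off IDs had 28.1, 30.95 and 27.5 eRPKM. In MycVD tumours the lowest, median and highest IDs had 38.2, 41.0 and 43.8 eRPKM, in Myc tumours 39.8, 41.9 and 43.98 eRPKM, and in control livers 12.3, 14.3 and 16.15 eRPKM. The Myc-off IDs thus lay apart from both the active tumours above them and the control livers below them, while MycVD and Myc tumours overlapped. On the log2 scale Trp53 rose by 1.48 ± 0.045 in MycVD tumours against control livers (adjusted p = 1.54e-23) and by 1.51 ± 0.049 in Myc tumours against control livers (adjusted p = 1.53e-22). In Myc-off tumours it was 0.98 ± 0.066 above control livers (adjusted p = 1.27e-13) and fell by 0.54 ± 0.070 against Myc tumours (adjusted p = 1.72e-07). The difference between MycVD and Myc tumours, -0.034 ± 0.050, did not pass (adjusted p = 0.697). Tumours of 1 animal differed by at most 0.26 on the log2 scale among the 5 Myc IDs with several tumours, and by up to 0.43 among the 3 Myc-off IDs, in ID150584.

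Mdm2, the ligase that closes the feedback loop, rose less than Trp53. Its level was 27.4, 31.4 and 28.4 eRPKM in the 3 Myc-off IDs. Elsewhere the lowest, median and highest IDs had 17.5, 23.9 and 25.5 eRPKM in MycVD tumours, 19.8, 23.0 and 33.5 eRPKM in Myc tumours, and 14.7, 18.1 and 20.6 eRPKM in control livers. Only the Myc-off IDs lay wholly above the control livers. The log2 fold change was 0.67 ± 0.121 in Myc-off tumours (adjusted p = 2.22e-05), 0.33 ± 0.081 in MycVD tumours (adjusted p = 0.000518) and 0.45 ± 0.090 in Myc tumours (adjusted p = 3.41e-05), each against control livers. With median-ratio scaling the rise in MycVD tumours was 0.12 and with quantile normalisation 0.14, and neither passed (adjusted p = 0.149 and 0.129). Myc-off tumours had 0.21 ± 0.128 more Mdm2 than Myc tumours, which did not pass (adjusted p = 0.169). It passed at 0.26 with every library a sample and the animal as a random block (adjusted p = 0.0374), and at 0.37 with depth as a term (adjusted p = 0.0388). With every library a sample and no block it passed at 0.30 (adjusted p = 0.00314). Without Myc tumours ID128992-B and ID126947-A, left out after seeing the data, it was 0.33 and passed (adjusted p = 0.0116). Over all alternatives the difference was 0.152 to 0.369. Thus, while Trp53 mRNA was lower in the Myc-off IDs than in Myc tumours, Mdm2 was not shown to be.

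Mdm4, the partner of Mdm2 that also restrains p53, averaged 38.9 ± 2.46 eRPKM in Myc-off, 47.4 ± 4.15 in MycVD, 49.99 ± 2.998 in Myc tumours and 30.6 ± 3.96 in control livers (SD over IDs). It rose by 0.71 ± 0.077 in Myc tumours against control livers (adjusted p = 7.07e-10) and was lower in Myc-off than in Myc tumours by a log2 fold change of -0.36 ± 0.110 (adjusted p = 0.00678).

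Pmaip1 encodes Noxa, a BH3-only protein that disables anti-apoptotic Bcl-2 relatives, and changed most of the 10 genes against control livers. It had 13.35, 12.4 and 7.03 eRPKM in the Myc-off IDs. The lowest, median and highest IDs had 4.89, 10.1 and 13.8 eRPKM in MycVD tumours, 5.83, 7.42 and 14.2 eRPKM in Myc tumours, and 0.201, 0.613 and 0.778 eRPKM in control livers. Every tumour ID was above every control ID, and the 3 tumour groups overlapped. No control ID reached the 1 eRPKM of the filter, so Pmaip1 passed it only through tumour IDs, where it is high. Its separation from control livers is thus a description. The ratio of the mean levels to that of control livers was 19.1 in Myc-off, 17.3 in MycVD and 15.7 in Myc tumours. On the log2 scale this was 3.27 ± 0.270, 3.24 ± 0.181 and 3.05 ± 0.200 (adjusted p = 1.1e-11, 1.21e-16 and 7.37e-15). Control libraries held only 3 to 17 reads of the gene, so their level is known coarsely, while tumour libraries held 54 to 688. Neither Myc-off (0.22 ± 0.286, adjusted p = 0.55) nor MycVD tumours (0.19 ± 0.204, adjusted p = 0.567) differed from Myc tumours past the threshold. With 1 library per ID the Myc-off difference was 0.84 and passed (adjusted p = 0.00828), with array weights it was -0.25 (adjusted p = 0.427), and without single IDs it was 0.013 (without Myc-off ID150584) to 0.598 (without Myc-off ID153344). Tumours of 1 Myc-off animal, ID153344, had 14.1, 4.21 and 2.74 eRPKM, a range of 2.18 on the log2 scale within 1 animal.

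Bbc3 encodes Puma, the other BH3-only protein of the set. It had 14.7, 8.72 and 8.49 eRPKM in the Myc-off IDs. IDs of the other groups had, as lowest, median and highest, 6.57, 9.34 and 10.1 eRPKM in MycVD tumours, 7.20, 13.2 and 18.8 eRPKM in Myc tumours, and 2.16, 5.88 and 12.6 eRPKM in control livers. All groups overlapped, and the control livers alone spread from the lowest value of the set to one above all MycVD IDs. Control livers numbered up to ID128994 had 5.88 to 12.6 eRPKM. Those from ID132859 on had 2.16 to 5.66 eRPKM, under every tumour ID. The cause of this split was not tested. Bbc3 rose in Myc tumours against control livers (0.91 ± 0.240, adjusted p = 0.000997), but not past the threshold with quantile normalisation (0.45, adjusted p = 0.0572) or with depth as a term (0.38, adjusted p = 0.254). Its log2 fold change was 0.44 ± 0.217 in MycVD tumours (adjusted p = 0.0608) and 0.62 ± 0.323 in Myc-off tumours (adjusted p = 0.102) against control livers. With every library a sample and the animal as a random block both passed, at 0.45 in MycVD (adjusted p = 0.0415) and 0.63 in Myc-off tumours (adjusted p = 0.0269). Without the 8 libraries of low Gapdh the MycVD value passed at 0.59 (adjusted p = 0.0212).

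Bax, the effector that opens the outer mitochondrial membrane, had 21.3, 30.1 and 24.8 eRPKM in the Myc-off IDs. Elsewhere the lowest, median and highest IDs had 27.9, 33.96 and 48.1 eRPKM in MycVD tumours, 25.25, 34.9 and 43.6 eRPKM in Myc tumours, and 9.23, 14.3 and 30.7 eRPKM in control livers. The highest control was ID125322, and the other control livers reached 19.9 eRPKM. Control livers numbered up to ID128994 had 13.4 to 30.7 eRPKM, and those from ID132859 on had 9.23 to 14.3. Bax rose by 0.69 ± 0.208 in Myc-off tumours (adjusted p = 0.0053), by 1.17 ± 0.139 in MycVD tumours (adjusted p = 5.61e-09) and by 1.15 ± 0.154 in Myc tumours (adjusted p = 5.63e-08), each against control livers. Without Myc-off ID151964 the first of these was 0.56 and did not pass (adjusted p = 0.0539). The 2 MycVD libraries of low Gapdh had 43.8 and 48.1 eRPKM of Bax, above the 27.9 to 36.35 of the other MycVD libraries, and without the low-Gapdh libraries of all groups the rises in MycVD and Myc tumours were 1.17 and 1.14. Bax was lower in Myc-off than in Myc tumours by -0.46 ± 0.220, which did not pass over IDs (adjusted p = 0.0821). With every library as a sample and the animal as a random block it was -0.51 (adjusted p = 0.0109).

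Phlda3, a pleckstrin-homology protein that competes with Akt for membrane lipids, followed Pmaip1 in size. The Myc-off IDs had 10.8, 15.8 and 8.26 eRPKM. The lowest, median and highest IDs had 4.19, 7.40 and 13.7 eRPKM in MycVD tumours, 5.475, 8.19 and 17.2 eRPKM in Myc tumours, and 0.562, 0.932 and 2.31 eRPKM in control livers. No tumour ID overlapped a control ID. The mean level was 10.5 times that of control livers in Myc-off, 7.34 times in MycVD and 8.72 times in Myc tumours. The log2 fold changes were 2.90 ± 0.314 (adjusted p = 3.36e-09), 2.40 ± 0.211 (adjusted p = 6.83e-12) and 2.57 ± 0.233 (adjusted p = 1.48e-11). Differences between tumour groups did not pass (0.33 ± 0.333 for Myc-off and -0.17 ± 0.238 for MycVD tumours, each against Myc tumours). With depth as a term the Myc-off difference was 1.10 and passed (adjusted p = 0.00443). Control libraries held 5 to 27 reads of the gene.

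Trp53inp1, a nuclear and autophagy-linked stress protein that acts with p53, was lower in active tumours and higher after switch-off. It had 60.9, 74.6 and 74.7 eRPKM in the Myc-off IDs. IDs of the other groups had, as lowest, median and highest, 9.22, 20.6 and 27.7 eRPKM in MycVD tumours, 15.6, 16.9 and 33.97 eRPKM in Myc tumours, and 26.25, 38.5 and 50.5 eRPKM in control livers. The Myc-off IDs lay above all others, and the active tumours overlapped only the lowest control livers. Trp53inp1 fell by 0.94 ± 0.152 in MycVD tumours (adjusted p = 1.41e-06) and by 1.01 ± 0.168 in Myc tumours (adjusted p = 2.32e-06) against control livers. In Myc-off tumours it rose by 1.84 ± 0.239 against Myc tumours (adjusted p = 1.45e-07), 3.50 times the mean level, and by 0.83 ± 0.226 against control livers (adjusted p = 0.0023). Every alternative and every omitted ID kept these 4 calls.

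Ei24, an endoplasmic reticulum protein needed for autophagy, fell in every tumour group. It had 40.1, 32.3 and 32.9 eRPKM in the Myc-off IDs. Elsewhere the lowest, median and highest IDs had 32.97, 43.2 and 47.8 eRPKM in MycVD tumours, 34.6, 41.2 and 46.1 eRPKM in Myc tumours, and 62.7, 69.7 and 77.1 eRPKM in control livers. All tumour IDs lay below all control livers. The log2 fold changes against control livers were -1.01 ± 0.087 in Myc-off (adjusted p = 2.85e-11), -0.77 ± 0.058 in MycVD (adjusted p = 2.46e-13) and -0.78 ± 0.065 in Myc tumours (adjusted p = 1.86e-12). It was also lower in Myc-off than in Myc tumours by -0.23 ± 0.092 (adjusted p = 0.0378). This call was lost under several alternatives, such as median-ratio scaling (-0.16, adjusted p = 0.181), and when any 1 of 5 IDs was left out (Myc ID125320, ID128992 or ID125324, or Myc-off ID151964 or ID153344, with values of -0.23 to -0.175).

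Ccng1, cyclin G1, which helps Mdm2 act on p53, rose in all tumour groups and most in Myc-off tumours. It had 78.55, 59.7 and 59.0 eRPKM in the Myc-off IDs. The lowest, median and highest IDs had 41.3, 54.6 and 67.4 eRPKM in MycVD tumours, 39.9, 47.3 and 50.4 eRPKM in Myc tumours, and 26.96, 35.25 and 38.4 eRPKM in control livers. Tumour and control IDs did not overlap, and neither did Myc-off and Myc tumours. Against control livers the log2 fold change was 0.89 ± 0.114 in Myc-off (adjusted p = 7.91e-08), 0.63 ± 0.076 in MycVD (adjusted p = 9.24e-09) and 0.39 ± 0.085 in Myc tumours (adjusted p = 0.000135). With median-ratio scaling the last was 0.14 and did not pass (adjusted p = 0.171). Ccng1 rose by 0.51 ± 0.121 in Myc-off against Myc tumours (adjusted p = 0.000745). Set against Myc tumours, MycVD tumours were higher by 0.24 ± 0.086 and just missed the threshold (adjusted p = 0.0539). Without the 8 libraries of low Gapdh it was 0.32 and passed (adjusted p = 0.000586); the 2 MycVD libraries among them had 41.3 and 41.6 eRPKM and the others 51.9 to 74.3.

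Sesn2, a sestrin that restrains mTORC1 and counters oxidative stress, was low throughout. It had 5.83, 5.61 and 4.19 eRPKM in the Myc-off IDs. IDs of the other groups had, as lowest, median and highest, 2.71, 3.79 and 4.96 eRPKM in MycVD tumours, 2.97, 4.87 and 9.30 eRPKM in Myc tumours, and 2.67, 3.15 and 4.73 eRPKM in control livers. All groups overlapped. Sesn2 rose in Myc tumours against control livers (0.60 ± 0.172, adjusted p = 0.00237), but this was 0.056 with quantile normalisation (adjusted p = 0.754) and 0.13 with depth as a term (adjusted p = 0.581). With 1 library per ID Sesn2 was 0.39 higher there, which did not pass (adjusted p = 0.0651). In Myc-off tumours it was 0.56 ± 0.232 above control livers (adjusted p = 0.0401), a call lost with no filter on low values, median-ratio scaling, quantile normalisation (0.038, adjusted p = 0.894) or array weights. It was also lost when any 1 of 6 IDs was left out (control ID132859, ID141041, ID141048 or ID142606, or Myc-off ID150584 or ID151964, with values of 0.49 to 0.54). MycVD tumours differed from control livers by 0.18 ± 0.156 (adjusted p = 0.276) and from Myc tumours by -0.41 ± 0.176 (adjusted p = 0.109), and neither passed.

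**Figure D2:**
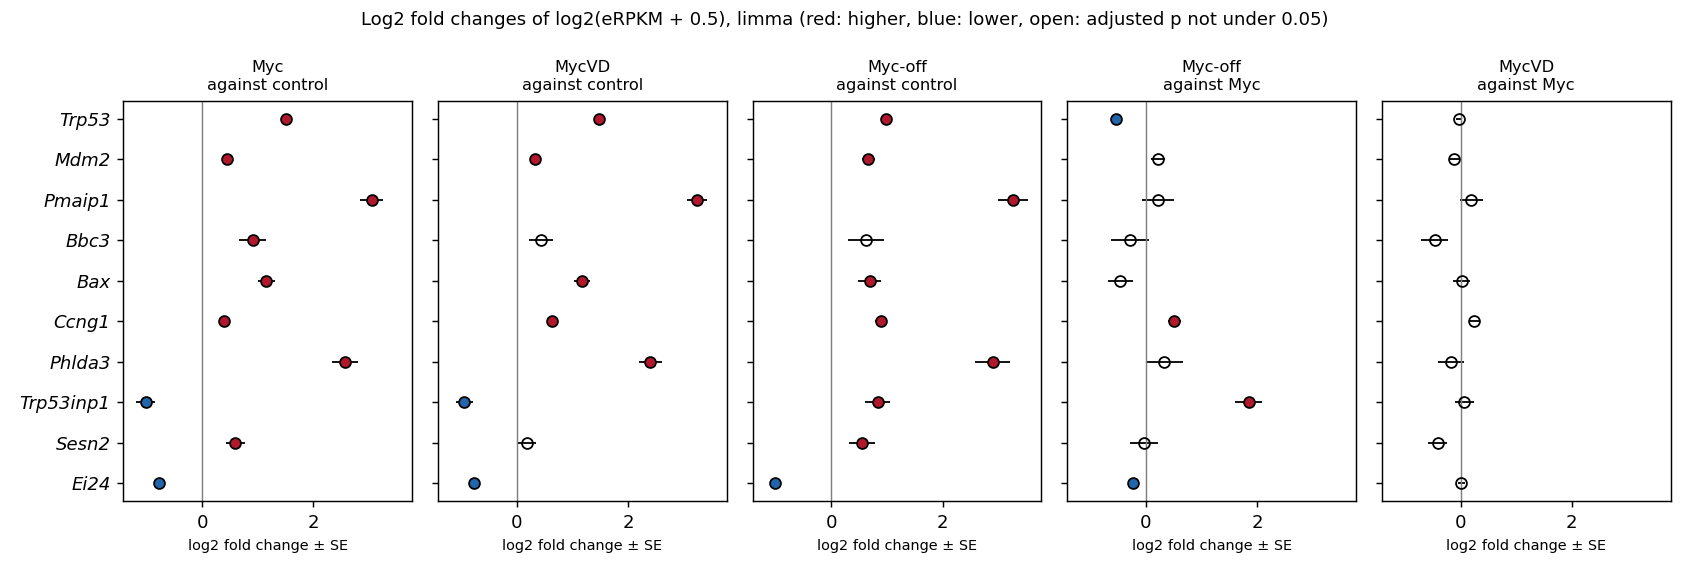
Log2 fold change (x axis, of log2(eRPKM + 0.5), with its standard error) of each gene (y axis) in the 5 comparisons, 1 per panel, from limma. Red points rose, blue points fell, and open points did not pass. In MycVD against Myc tumours all 10 points are open, while in Myc-off against Myc tumours Trp53inp1 stands out at 1.84.

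Counted over the set, 8 genes rose and Trp53inp1 and Ei24 fell in Myc tumours against control livers, where 79.9% of all tested genes passed (50.0% higher and 29.9% lower). The ranges of IDs did not overlap for 5 of the 10, against 53.8% of all genes. In MycVD tumours 6 rose, the same 2 fell, and Bbc3 and Sesn2 did not pass, where 80.2% of all genes passed (49.1% higher and 31.1% lower); 5 of the 10 did not overlap, against 40.5%. In Myc-off tumours 8 rose, Ei24 fell and Bbc3 did not pass, where 57.9% of all genes passed (36.3% higher and 21.6% lower), and 7 of the 10 did not overlap, against 40.0%. The median log2 fold change of the 10 was 0.75 in Myc, 0.53 in MycVD and 0.76 in Myc-off tumours, beside medians of 0.27, 0.22 and 0.15 over all genes in the same comparisons. These 3 comparisons share the control livers. The largest changes were those of Pmaip1 and Phlda3, and Pmaip1 passed the filter on low values only through tumour IDs. With 10 genes chosen with results known, the counts were read against these shares and not tested.

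In Myc-off against Myc tumours, where 50.4% of all genes passed, Ccng1 and Trp53inp1 rose, Trp53 and Ei24 fell, and 6 did not pass, where 22.2% of all genes rose and 28.2% fell. Ranges did not overlap for 3 of the 10 (Trp53, Ccng1 and Trp53inp1), against 45.5% of all genes. The 10 had a median of 0.088 beside -0.008 over all genes. Between MycVD and Myc tumours limma called none of the 10, where it called 15.7% of all genes (6.56% higher and 9.17% lower), and the ranges of none were apart, against 2.10%. At an unadjusted p under 0.05 there were 2, Ccng1 and Sesn2, in opposite directions, and the median was -0.011 beside -0.042 over all genes.

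Levels of several of the 10 genes were not even over the Myc tumours. In ID128992-B and ID126947-A, 2 tumours of different animals, 8 and 6 of the 10 genes lay among the top 2 of the 16 Myc libraries, while no other library had more than 2 genes there. Mdm2 was at 38.5 and 33.5 eRPKM in these 2 tumours, and at most 26.5 in the other 14. Pmaip1 was at 20.5 and 14.2 eRPKM, against at most 10.6. For Phlda3 the values were 24.5 and 15.7 eRPKM against at most 10.55, and for Sesn2 12 and 9.30 eRPKM against at most 7.60. Trp53inp1, the target that was low in Myc tumours, was at 31 and 33.97 eRPKM against at most 20.6. Cdkn1a moved likewise, at 48.9 and 44.3 eRPKM against at most 27.65. Trp53 itself was within the range of the others, at 44.1 and 41.9 eRPKM against 38.4 to 46.1, and so was Ei24. The second tumour of the first animal, ID128992-A, had 25.4 eRPKM of Mdm2, 7.52 of Pmaip1 and 21.6 of Cdkn1a, within the other tumours. The tumours were singled out after their values were seen, so these values are a description with no test. The share of all tested genes in the top 2 of each library was not computed. Whether the pattern is particular to these genes thus cannot be told. Gapdh was at 16.1 eRPKM in ID128992-B, one of the low libraries, and at 44.8 in ID126947-A, which is not one of them. Recovered depth was 12.62 M reads in ID128992-B, the most of any library, and 11.7 M in ID126947-A, against a Myc median of 9.62 M. ID128285-B had 12.3 M reads and none of the genes in the top 2. The part of depth was not tested.

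**Figure D3:**
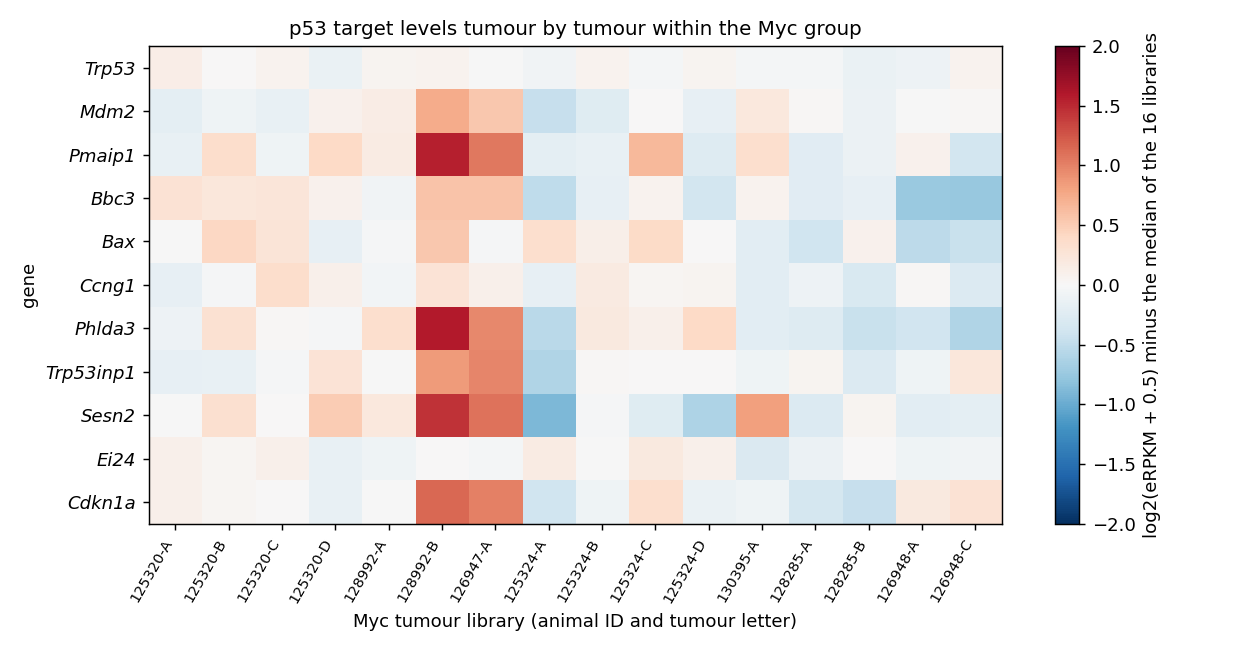
Log2(eRPKM + 0.5) of the 10 genes and Cdkn1a (rows) in the 16 Myc tumour libraries (columns, by animal ID and tumour letter), less the median of the 16 libraries. Tumours ID128992-B and ID126947-A are red for Mdm2, Pmaip1, Phlda3, Trp53inp1, Sesn2 and Cdkn1a, while Trp53 and Ei24 are near white across all tumours.

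Mdm2 was then set against the other genes over ID means within the 7 Myc, 10 MycVD and 11 control IDs, 27 relations in all. None passed after adjustment, the lowest adjusted p being 0.073 (permutation tests, exact for the Myc tumours, two-sided). In Myc tumours Sesn2 gave Pearson's r = 0.92 (exact p = 0.0038) and Spearman's rho = 0.857 (exact p = 0.024, adjusted p = 0.31). Pmaip1 gave r = 0.92 (exact p = 0.0069) with rho = 0.714 (exact p = 0.088), and Trp53inp1 r = 0.86 (exact p = 0.0081) with rho = 0.821 (exact p = 0.034). Without ID126947 and ID128992, r was 0.856 for Sesn2, 0.519 for Pmaip1 and 0.225 for Trp53inp1, so that the last of these rests on those IDs. In MycVD tumours the largest r was 0.644, for Phlda3 (permutation p = 0.043, adjusted p = 0.22, rho = 0.564), and in control livers Phlda3 gave -0.644 (permutation p = 0.035, adjusted p = 0.22, rho = -0.255).

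Over the 31 IDs, after the group means were subtracted, the genes outside the lists most like Trp53 were Dpm2 (Pearson's r = 0.759), Cdc25a (0.758), Hsf1 (0.721), Alg12 (0.716) and Sf3b4 (0.716), among 10130 genes ranked. For Mdm2 they were Ambra1 (0.71), Gtf3c2 (0.699), Zfp142 (0.694), Csrnp2 (0.692) and Pvr (0.678). Above these stood Polk (0.731), a translesion DNA polymerase gene from the list of other p53 targets. These are descriptions over IDs that share depth and tissue makeup. Trp53 and Mdm2 gave r = 0.341 with each other.

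Of 65 other p53 targets listed, 60 were tested. In Myc tumours 30 rose and 18 fell against control livers, where 50.0% of all genes rose and 29.9% fell. The list median was 0.19 beside 0.27 over all genes. In MycVD tumours 27 rose and 22 fell (median 0.26, all genes 0.22), where 49.1% of all genes rose and 31.1% fell. In Myc-off tumours 27 rose and 14 fell (median 0.20, all genes 0.15), where 36.3% rose and 21.6% fell. Cdkn1a averaged 29.8 ± 9.93 eRPKM in Myc-off, 23.2 ± 8.19 in MycVD and 26.4 ± 9.88 in Myc tumours, and 2.35 ± 1.88 in control livers, and rose in all 3 (3.62 ± 0.436, 3.25 ± 0.292 and 3.42 ± 0.323, adjusted p = 2.58e-08, 1.24e-11 and 3.89e-11). Ccnd1 (cyclin D1) fell by 2.46 in Myc-off, 2.52 in MycVD and 2.58 in Myc tumours, and Ephx1, a detoxifying epoxide hydrolase, fell by 2.01, 2.58 and 3.29. Other large changes were the rises of Ckm and Pvt1 in Myc tumours (4.62 and 3.17), of Dram1 in MycVD tumours (2.71) and of Ckm in Myc-off tumours (2.58), and the falls of Plk3 in Myc tumours (-2.02), Dcxr in MycVD tumours (-2.38) and Mgmt in Myc-off tumours (-2.53). The Ckm ranges of Myc-off and control IDs overlapped. Ckm averaged 0.026 eRPKM in control livers, too low for any control ID to count toward the filter on low values. Like Pmaip1, Ckm thus passed that filter only through tumour IDs, and its rises against control livers are a description.

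In Myc-off against Myc tumours 18 of these targets rose and 14 fell, where 22.2% of all genes rose and 28.2% fell. The list median was 0.14 beside -0.008 over all genes. Fas, the death receptor, averaged 38.3 eRPKM in Myc-off and 8.77 in Myc tumours (2.08 ± 0.172, adjusted p = 2.39e-11). Btg2, an antiproliferative gene, averaged 50.7 and 18.5 eRPKM in the same groups (1.46 ± 0.233), and Dgka rose by 1.29. The log2 fold changes of Ckm, of Pvt1, the non-coding neighbour of Myc, and of Pmm1 were -2.04, -1.83 and -1.76. Ckm averaged 8.68 eRPKM in Myc-off and 14.1 in Myc tumours, and its ranges of IDs overlapped. MycVD against Myc tumours gave 5 that rose and 11 that fell, where 6.56% and 9.17% of all genes did, among them Eda2r (1.01 ± 0.349) and Fas (0.81 ± 0.123, adjusted p = 3.44e-05) upward, and Ckm (-3.00 ± 0.424), Ddit4 (-1.09 ± 0.370) and Pvt1 (-0.91 ± 0.240) downward.

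**Figure D4:**
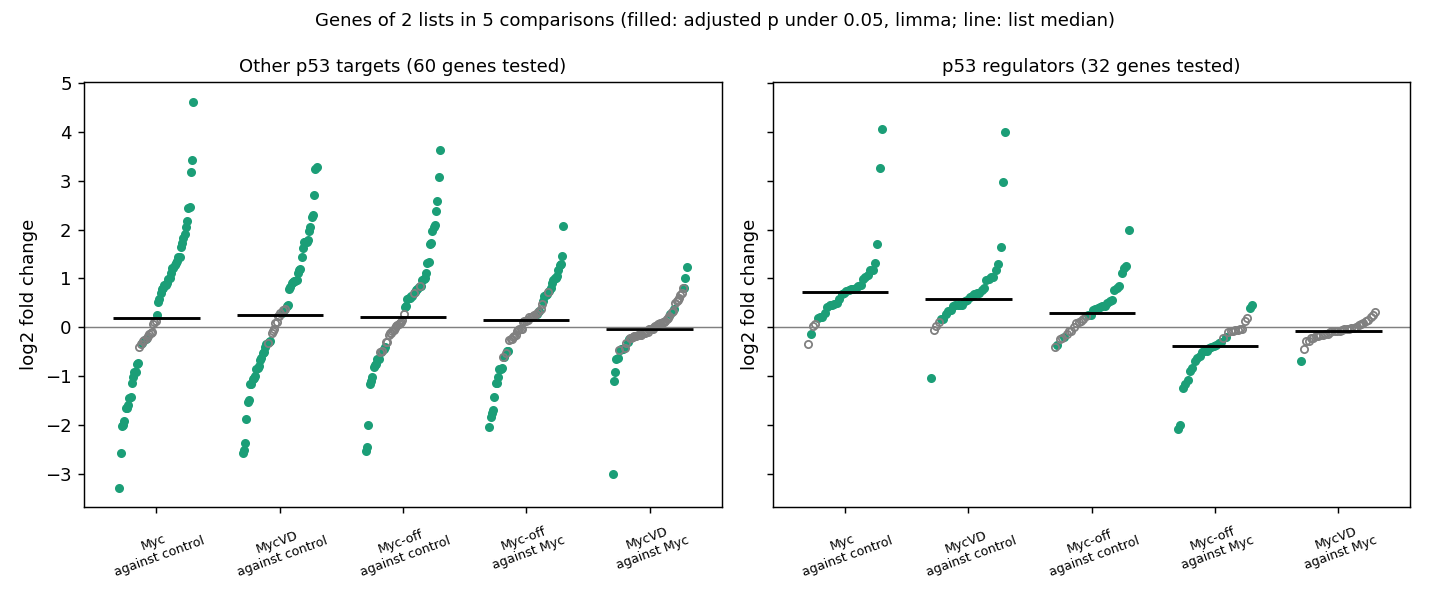
Log2 fold change (y axis) of 60 other p53 targets and 32 p53 regulators in the 5 comparisons (x axis), 1 point per gene in order of size. Filled points passed in limma, open points did not, and the line is the list median. Regulators lie mostly above 0 in the active tumours against control livers (medians 0.58 and 0.73) and mostly below 0 in Myc-off against Myc tumours (median -0.38).

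Of 35 regulators of p53 listed, 32 were tested, and 28 rose and 1 fell both in MycVD and in Myc tumours against control livers, where 49.1% and 50.0% of all genes rose. In Myc-off tumours against control livers 18 rose and 2 fell, where 36.3% of all genes rose and 21.6% fell. In Myc-off against Myc tumours 2 rose and 20 fell, where 22.2% of all genes rose and 28.2% fell. The checkpoint kinase genes changed most: Chek1 averaged 4.13 eRPKM in Myc-off, 17.5 in MycVD and 18.4 in Myc tumours, and 0.760 in control livers. Chek2 averaged 4.72, 16.7 and 20.3 eRPKM in the same tumour groups and 1.70 in control livers. Atr, the kinase upstream of Chek1, averaged 25.6 eRPKM in MycVD and 26.6 in Myc tumours, against 7.79 in control livers. Atm averaged 8.76 eRPKM in Myc-off against 21.15 in Myc tumours (-1.24 ± 0.119, adjusted p = 4.5e-10). Rchy1, another ubiquitin ligase for p53, rose by 0.38 and Ppp1r13b by 0.46 in Myc-off against Myc tumours, and Ppp1r13b rose by 1.21 in Myc-off tumours against control livers. Usp10 (-0.37) and Huwe1 (-0.19) fell in Myc-off tumours, Rchy1 fell in Myc tumours (-0.14), and Hipk2 fell in MycVD tumours (-1.03), each against control livers. Hipk2, a kinase that phosphorylates p53, was also the regulator called in MycVD against Myc tumours (-0.69 ± 0.227, adjusted p = 0.0355).

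Cdkn2a, whose Arf product inhibits Mdm2, and the p53 relatives Trp63 and Trp73 did not pass the filter on low values. Cdkn2a reached 1.755 eRPKM in a Myc-off library, 1.42 in a MycVD library, 0.896 in a Myc library and 0.441 in a control library, and was listed at 0 in libraries of every group. Trp63 stayed at or under 0.564 eRPKM in every library. Trp73 was listed at 0 in all 11 control livers and reached 0.323 eRPKM in a Myc library.

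The tissue itself changed with the groups. The summed level of 10 hepatocyte markers was 906 to 1120 eRPKM in Myc-off, 575 to 860 in MycVD and 403 to 686 in Myc tumours, and 1158 to 1878 in control livers, and all 10 fell in MycVD and in Myc tumours. Neutrophil markers summed to 121.5 to 332 eRPKM in Myc-off, 33.3 to 566 in MycVD and 61.1 to 212 in Myc tumours, and 8.32 to 23.2 in control livers, with 7 of 7 higher in each. Cholangiocyte markers summed to 50.9 to 147 eRPKM in Myc-off tumours and 18.3 to 42.7 in Myc tumours, with 6 of 6 tested higher. Endothelial markers summed to 57.9 to 106 eRPKM in Myc-off, 50.6 to 103 in MycVD and 63.2 to 94.3 in Myc tumours, and 162 to 302 in control livers. Erythroid markers rose in 6 of 6 in Myc tumours, and lymphocyte sums were 27.2 to 44.5 eRPKM in Myc-off and 22.9 to 33.5 in Myc tumours against 8.33 to 16.3 in control livers. Macrophage (115 to 190 in Myc-off, 69.3 to 138 in MycVD, 120.5 to 152 in Myc and 123 to 221 in control) and stellate sums (87.6 to 145 in Myc-off, 53.6 to 167 in MycVD, 79.4 to 149.5 in Myc and 142 to 206.5 in control) overlapped between groups. Even so, of 8 macrophage markers 1 rose and 5 fell in MycVD tumours against control livers. Against Myc tumours 0 rose and 4 fell in MycVD tumours. Of 8 stellate markers 2 rose and 4 fell in MycVD tumours against control livers. In Myc tumours against control livers 3 rose and 3 fell in each of these 2 lists. The part of any of these cell types in the changes of the p53 genes was not tested.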

How the data were processed

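Ribosomal RNA was removed with Ribozero, and the TruSeq RNA v2 kit was used for the libraries, per the labels' protocols. GENCODE places other genes over Bax and Sesn2 on the same strand. Another lies over Ei24 on the opposite strand, and that kit does not mark strand. These overlaps are of whole gene spans, and whether exons overlap was not checked. Where exons of these 3 genes are shared, their reads cannot be told apart from those of the genes over them. Trp53 shares sequence with a pseudogene. The authors deposited exonic RPKM values. Per the submitters' processing notes, TopHat2 2.0.8 and mm9 were used. For counter, annotation and RPKM denominator, the details were not given in the sources used here. Whole reads were recovered for 19463 of 21671 genes, at 3.22 to 12.62 M reads per library. A gene was kept only if all its values came within 0.001 of a whole number. That 100.0% of the kept values did so was thus fixed beforehand. The highest density of the 10 genes was 706.5 reads per kb, under the 1455 to 2173 that bounded the libraries. Whether levels below this bound were compressed, in the 10 genes or in the marker sums, was not tested.

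The replicate was the animal ID in the title, taken to be an animal. Values were averaged over tumours of 1 ID on the log2(eRPKM + 0.5) scale for tests, and as eRPKM for the levels shown. A gene was tested if 3 or more IDs had 1 eRPKM or more (14566; 7105 left out). limma 3.58.1 in R 4.3.3 (lmFit, eBayes with trend, two-sided) fitted the 4 groups together with no covariate, at a Benjamini-Hochberg threshold of 0.05. It was tested on simulated data first. Replicate numbers pair no samples. The named genes were the 10 members, 5 fixed regulators and targets, the 3 highest and 3 lowest called genes of each list per comparison, and the 5 genes outside the lists most like Trp53 and Mdm2 among those with a mean of at least 5 eRPKM. Of the genes so chosen, 1 is not reported here. The members and lists were chosen with earlier results of these data known. Promoters came from RefSeq (GRCm38.p6), not the files' build, and share no coordinates with them.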

Additional observations from a re-analysis of the deposited data

How the results depend on the processing

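Over the 10 genes and 5 comparisons, 23 of 750 values changed sign under the settings other than single IDs. With single IDs left out 12 more did. None of these was past the threshold in the reported fit. No paired analysis was possible because replicate numbers are names given in accession order. Scaling moved all genes: the median log2 fold change over all genes was 0.27 in Myc, 0.22 in MycVD and 0.15 in Myc-off tumours against control livers, and 0.045, 0.033 and -0.020 with median-ratio scaling. The share of calls that were higher was then 51.8%, 51.3% and 48.2%, against 62.5%, 61.2% and 62.7%; with quantile normalisation it was 52.8%, 52.2% and 49.3%. For MycVD against Myc tumours it was 53.03% with median-ratio scaling, against 41.7%.

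The genes lower in Myc-off than in Myc tumours were 1 in place of 2 with median-ratio scaling, with depth as a term, without the 8 libraries of low Gapdh and without tumours ID128992-B and ID126947-A, and 1 to 3 without single IDs. The last 2 settings were chosen after seeing the data. The genes higher there were 4 in place of 2 with depth as a term. Between MycVD and Myc tumours 1 gene, Ccng1, was higher in place of 0 with median-ratio scaling, with every library a sample and no block, with 1 library per ID, with array weights and in the 2 settings chosen later, and 0 to 1 were higher and 0 to 1 lower without single IDs. With only those 2 groups in the fit 1 gene, Bbc3, was lower. All genes called there numbered 4791 with array weights, 982 with depth as a term, 3968 without the low-Gapdh libraries and 1497 to 2604 without single IDs, the fewest without Myc ID130395, against 2290. Other p53 targets in that comparison were 4 to 11 higher (5 as reported) and 2 to 16 lower (11 as reported) under the settings other than single IDs, and regulators 0 to 3 higher and 0 to 10 lower (0 and 1). Regulators lower against control livers were 3 in Myc, 3 in MycVD and 5 in Myc-off tumours with median-ratio scaling, against 1, 1 and 2.

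Calls gained by leaving out 1 ID were Bbc3 in MycVD tumours against control livers (control ID125319, ID128988, ID125322 or ID128993, or MycVD ID134660; up to 0.54) and in Myc-off tumours (control ID125322; 0.71), Bax in Myc-off against Myc tumours (control ID125322 or Myc ID126948; down to -0.54), Sesn2 in MycVD against Myc tumours (Myc ID125324; -0.54) and Ccng1 there (control ID125322, Myc-off ID150584, MycVD ID133074 or ID133079; up to 0.28).

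Sesn2 in Myc-off against Myc tumours (-0.038) was 0.024 with median-ratio scaling, 0.059 with a random block, 0.13 with no block, 0.22 with 1 library per ID, 0.43 with depth as a term, 0.058 without the shallowest libraries, 0.062 without low Gapdh and 0.19 without the 2 tumours, and -0.165 to 0.091 without single IDs. Bbc3 there was 0.24 with depth as a term and Pmaip1 -0.25 with array weights. Sesn2 in MycVD tumours against control livers was -0.24 with quantile normalisation. In MycVD against Myc tumours, Trp53 was 0.009 with median-ratio scaling and 0.024 with depth; Bax -0.014 with the block, -0.051 without and -0.032 with array weights (-0.056 to 0.069 without single IDs); Ei24 -0.027 with quantile normalisation, -0.014 with the block, -0.039 without and -0.017 with array weights (-0.027 to 0.049); Phlda3 0.33 with depth and 0.070 without the 2 tumours; and Trp53inp1 -0.031 with depth. The cause was not tested.

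Without the 2 IDs farthest in Mdm2, its correlation changed sign for Trp53 (-0.359), Bax (-0.643), Ccng1 (-0.724) and Phlda3 (-0.47) in Myc tumours, for Trp53 (-0.192) in MycVD tumours, and for Pmaip1 (0.527), Bbc3 (0.706), Bax (0.538), Ccng1 (-0.362) and Trp53inp1 (-0.19) in control livers. Depth limits Pmaip1 and Phlda3 in control livers.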
